A study of Mus musculus with 12 samples.

Results

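The data described here are the 10 circadian clock genes ARNTL, CLOCK, PER1, PER2, PER3, CRY1, CRY2, NR1D1, NR1D2 and DBP in injured mouse spinal cord. They were chosen by name, with earlier results of these data known. All 10 were listed at both sites among the 13647 gene entries above the lesion and the 12338 below it. Bulk RNA-seq was performed on cord segments collected just rostral (above) or caudal (below) of a moderate contusion at thoracic level 9, in male mice that were 4 months of age at surgery and were killed at 14 days post-injury. Every mouse carried the human ApoE4 variant of apolipoprotein E. The mice were either homozygous for the normal allele of synaptojanin 1, synj1+/+, or heterozygous for an inactive allele, synj1+/-. Each of the 4 groups of genotype and site held 3 libraries, 12 in all, and the ApoE3 mice and uninjured cords of the study were not analysed here.

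The deposited table gives 1 value per gene and group, pooled over the 3 libraries. The table does not state the unit. From the study's methods and the lowest value, which is 1, the values were read as FPKM, fragments per kilobase of transcript per unit of sequencing depth, with upper quartile normalization and with 1 added, and levels below are given as FPKM after that 1 was removed. No value of a single library was used and the authors' own test results were set aside. For this reason no spread between mice and no test is given for any difference. By the methods, libraries of a site were thinned to equal read counts, but the number of reads behind a gene's value is not given. A log2 fold change is that of FPKM + 1 in labelled heterozygotes over labelled homozygotes, which understates the difference of a low gene. Genes are counted where the log2 fold change is 0.3 or more in size, a limit of magnitude only.

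The words labelled heterozygotes and labelled homozygotes are used because the targeted gene goes against the labels. SYNJ1, the gene with the inactive allele, had an FPKM of 1904 in labelled homozygotes and 2403 in labelled heterozygotes above the lesion. Below it, the corresponding levels were 1846 and 2592. The gene with an inactive copy was therefore listed higher, not lower, at both sites (log2 fold changes 0.34 and 0.49), and every direction below depends on the labels. By the study's methods, genotypes were checked by PCR.

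The mammalian clock is a feedback loop of transcription that runs in nearly every cell. ARNTL (also called BMAL1) pairs with CLOCK, and the pair binds E-box sequences to activate the PER and CRY genes, whose proteins return to the nucleus and inhibit the pair. In a second loop NR1D1 and NR1D2 (REV-ERB alpha and beta) repress ARNTL through ROR elements, and DBP activates genes with D-boxes, so that ARNTL RNA normally peaks at the opposite time of day to DBP, NR1D1 and PER3. PER1 is in addition an acute target of glucocorticoid hormones and of neuronal activity. The hour at which each mouse was killed is not given in the sources used here.

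The control sequences of the loop are shown for the 4 members whose windows held an E-box, a D-box or a ROR element, since PER1, ARNTL and CRY1 also had the largest genotype differences above the lesion. Sequences are from RefSeq on GRCm38.p6, in windows of 250 bases before and 50 bases from a transcription start. Of the 10 members, 9 matched (PER2 did not), with 13 windows. Capitals mark the motif matches, and positions count from the start, with -1 the base before it.
PER1, chr11:69098699-69098948, plus strand, positions -250 to -1, E-box in capitals: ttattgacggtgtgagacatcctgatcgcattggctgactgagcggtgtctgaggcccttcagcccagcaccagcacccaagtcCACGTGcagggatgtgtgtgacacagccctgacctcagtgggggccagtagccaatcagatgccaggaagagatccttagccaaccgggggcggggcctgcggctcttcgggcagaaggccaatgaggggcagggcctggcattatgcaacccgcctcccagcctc
CRY1, chr10:85185055-85185304, minus strand, positions -250 to -1, E'-box and E-box in capitals: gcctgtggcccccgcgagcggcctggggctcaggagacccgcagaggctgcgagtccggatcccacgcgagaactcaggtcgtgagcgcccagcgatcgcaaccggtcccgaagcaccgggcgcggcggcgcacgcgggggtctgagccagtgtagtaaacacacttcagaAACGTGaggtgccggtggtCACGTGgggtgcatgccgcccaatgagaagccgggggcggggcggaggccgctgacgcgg
PER3, chr4:151044666-151044915, minus strand, positions -250 to -1, both D-boxes in capitals: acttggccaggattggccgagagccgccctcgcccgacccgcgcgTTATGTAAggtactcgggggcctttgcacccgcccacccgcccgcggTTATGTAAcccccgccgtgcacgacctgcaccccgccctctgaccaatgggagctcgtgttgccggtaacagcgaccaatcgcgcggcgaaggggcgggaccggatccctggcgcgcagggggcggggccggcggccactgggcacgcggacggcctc
ARNTL, chr7:113207529-113207558, plus strand, positions 19 to 48, ROR element in capitals: gaaggcagaaagTAGGTCAgggacggaggt

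The motifs were searched on both strands, and no match of one motif overlapped a match of another in these windows. The E-box CACGTG lay at -166 to -161 in PER1 and at -60 to -55 in CRY1, and 7.15% of all 32851 promoter windows hold it. The related E'-box CACGTT was found, as its reverse complement, in CRY1 at -79 to -74, CRY2 at -166 to -161 and NR1D1 at -28 to -23, and 4.68% of all windows hold it. The D-box TTATGTAA occurred only in PER3 among the members, at -205 to -198 and -158 to -151, against 0.938% of all windows. The ROR element TAGGTCA occurred in ARNTL at 31 to 37 of the later of its 2 starts, against 2.61%. The cAMP response element TGACGTCA (1.79% of all windows) and a glucocorticoid response element, GNACA and TGTNC with 3 bases between (0.475%), had 0 matches in the 13 windows. CLOCK, NR1D2 and DBP had no match of any motif searched. These matches are letters within short windows and say nothing of binding.

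The clock genes were expressed in an order that was nearly the same in the 4 groups. DBP, a transcription factor of the D-box, and CLOCK, the partner of ARNTL, led with PER3, and the 3 genes had FPKM between 114 and 148 in every group. CRY2 followed at 91.3 to 101, then PER1 at 66.1 to 84.4 and ARNTL at 59.4 to 85.0. NR1D1 ranged from 34.3 to 37.7 and NR1D2 from 26.7 to 30.5. CRY1 and PER2 were lowest, at 13.5 to 17.6 and 9.51 to 12.5. All 4 groups shared the ranks from NR1D1 downward, whereas CLOCK ranked first in labelled homozygotes above the lesion and DBP ranked first in the other 3 groups. PER1 exceeded ARNTL in 3 groups, and ARNTL exceeded PER1 in labelled heterozygotes above the lesion. Among all genes of a site and group, DBP lay between percentiles 80.0 and 84.8 of expression and PER2 between 20.7 and 28.3. Neighbours in this order cannot be separated, because no spread over libraries is known.

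**Figure D1:**
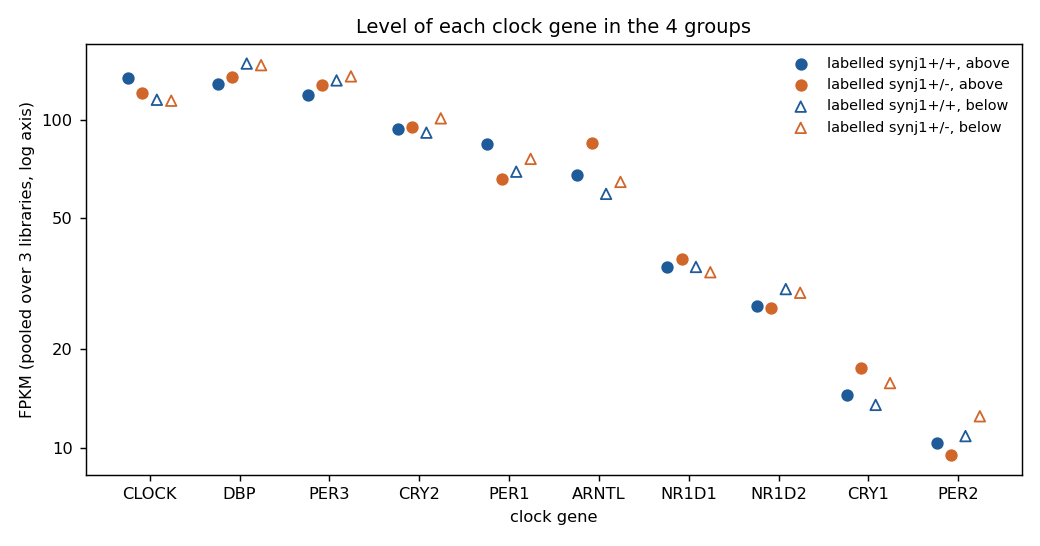
FPKM of the 10 clock genes on a log axis, ordered by their level in labelled homozygotes above the lesion. Each point is 1 group value pooled over 3 libraries, so there are no error bars. The 4 points of a gene lie close together, from DBP, CLOCK and PER3 between 114 and 148 down to PER2 between 9.51 and 12.5.

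Above the lesion, PER1 was the clock gene with the largest genotype difference and the only repressor of the period family past the limit. Its FPKM was 84.4 in labelled homozygotes and 66.1 in labelled heterozygotes, a log2 fold change of -0.35 or a fold of 0.786. PER1 lies on chromosome 11 of GRCm38 from 69095217 to 69109960 on the plus strand. ARNTL, the activator, was the only other member past the limit. Its FPKM was 67.8 in labelled homozygotes and 85.0 in labelled heterozygotes, a log2 fold change of 0.32 or a fold of 1.25, and of 0.29, short of the limit, with a pseudocount of 10. ARNTL lies on chromosome 7 from 113207465 to 113314126 on the plus strand. Of the 10 members, 1 was thus higher and 1 lower past the limit. Of all 13647 gene entries above the lesion, 4.87% were higher and 8.54% lower by as much, 13.4% in either direction. With 10 genes, 2 past the limit is close to that share and is no result about clock genes as a group.

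The other members differed less above the lesion. CRY1, a repressor of the loop, came nearest to the limit with FPKM of 14.5 in labelled homozygotes and 17.6 in labelled heterozygotes (log2 fold change 0.26). CRY2, its paralog, had levels of 93.7 and 94.9 in the same order (0.02). CLOCK had levels of 134 and 121, a log2 fold change of -0.15. PER2 had levels of 10.3 and 9.51 (-0.11) and PER3 of 119 and 127 (0.10). The paralogs of the period family therefore did not share a direction, with PER1 and PER2 lower and PER3 higher. NR1D1 stood at 35.5 and 37.7 (0.08), NR1D2 at 27.1 and 26.7 (-0.02), and DBP at 129 and 135 (0.07). NR1D1, DBP and PER3, genes whose RNA normally peaks opposite to ARNTL, were on the higher side with it, each short of the limit. A difference in the time of the clock was not tested. The median absolute log2 fold change was 0.105 for the 10 clock genes and 0.111 for all genes above the lesion.

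Below the lesion, 0 of the 10 clock genes passed the limit, where 9.48% of the 12338 gene entries were higher and 12.7% lower by as much, 22.2% in either direction. PER1, lower above the lesion, stood at 69.4 in labelled homozygotes and 75.9 in labelled heterozygotes, a log2 fold change of 0.13. ARNTL had levels of 59.4 and 64.6 (0.12). The direction of ARNTL was that seen above, and that of PER1 was not. CRY1 had the largest difference below, with levels of 13.5 and 15.8 (0.21). PER2 followed with 10.9 and 12.5 (0.18) and CRY2 with 91.3 and 101 (0.14). All of the PER and CRY genes, the negative arm of the loop, were on the higher side here, as were 52.8% of all genes. PER3 was so by least, with 132 and 135 (0.04). PER1, CRY2 and PER3 differed by less than the median absolute log2 fold change of all genes, 0.151. CLOCK stood at 115 and 114 (-0.01), NR1D1 at 35.6 and 34.3 (-0.05), NR1D2 at 30.5 and 29.7 (-0.04) and DBP at 148 and 146 (-0.02). The median absolute log2 fold change was 0.0855 for the clock genes and 0.151 for all genes below the lesion.

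Both sites were then compared for the genotype difference. By the study's table of groups, each genotype had as many mice for RNA-seq as libraries at a site. Segments above and below thus appear to come from the same mice, although the labels do not pair them. Agreement between the sites is therefore not taken as independent. ARNTL, PER3, CRY1 and CRY2 were on the higher side in labelled heterozygotes at both sites, and CLOCK and NR1D2 on the lower side. Of all genes, 49.0% were on the higher side above the lesion and 52.8% below it. NR1D1 and DBP were higher above and lower below, by at most 0.08 on the log2 scale in either direction. PER1 and PER2 were lower above and higher below. The log2 fold change below minus that above was 0.48 for PER1 and 0.29 for PER2, and it lay between -0.20 and 0.14 for the other 8 clock genes. PER1 was the only member whose difference between the sites reached 0.3, as did 22.5% of the 12025 genes listed at both sites. Without a pseudocount PER2 reached it as well. These differences were not tested, since neither fold change has an error.

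**Figure D2:**
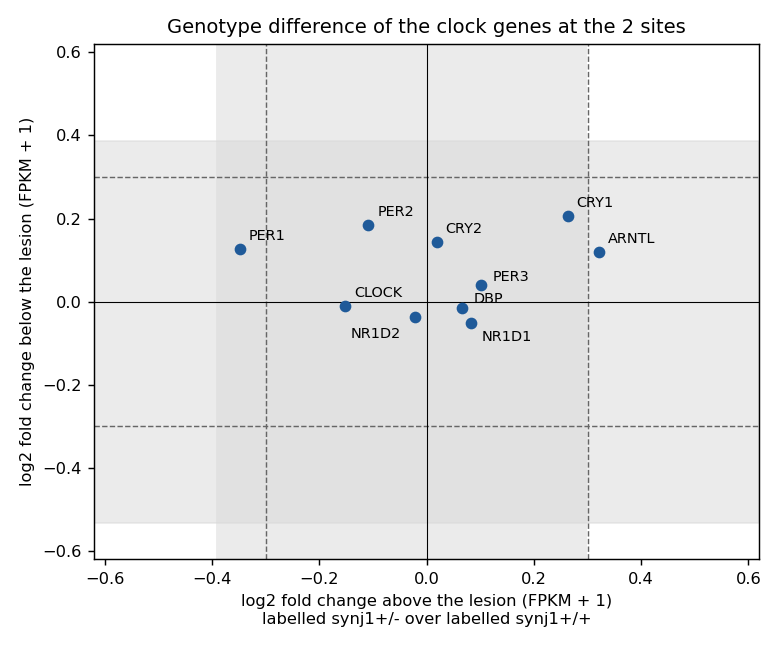
Log2 fold change of each clock gene (FPKM + 1, labelled heterozygotes over labelled homozygotes) above the lesion on the x axis and below it on the y axis. Dashed lines mark the limit of 0.3 and the grey bands the range from the 5th to the 95th percentile of all genes at that site. PER1 at -0.35 and ARNTL at 0.32 lie past the limit above the lesion, and no gene does so below.

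The levels at each site were also set side by side within a genotype. Reads of each site were reduced and normalized separately by the authors, so these ratios hold only relative to all genes, whose median log2 ratio of below over above was -0.0008 in labelled homozygotes and 0.02 in labelled heterozygotes. In labelled homozygotes the ratios of the clock genes ran from -0.28 for PER1 to 0.20 for DBP, and 0 of 10 reached 0.3, as 20.3% of all genes did. In labelled heterozygotes 2 of 10 did so, ARNTL at -0.39 and PER2 at 0.36, as did 12.7% of all genes. PER1 was lower below than above in labelled homozygotes (-0.28) and higher below in labelled heterozygotes (0.20). DBP, PER3 and NR1D2 stood higher below than above in both genotypes, by 0.09 to 0.20. PER2 did so as well, by 0.07 in labelled homozygotes and 0.36 in labelled heterozygotes. CLOCK, ARNTL and CRY1 stood lower in both.

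**Figure D3:**
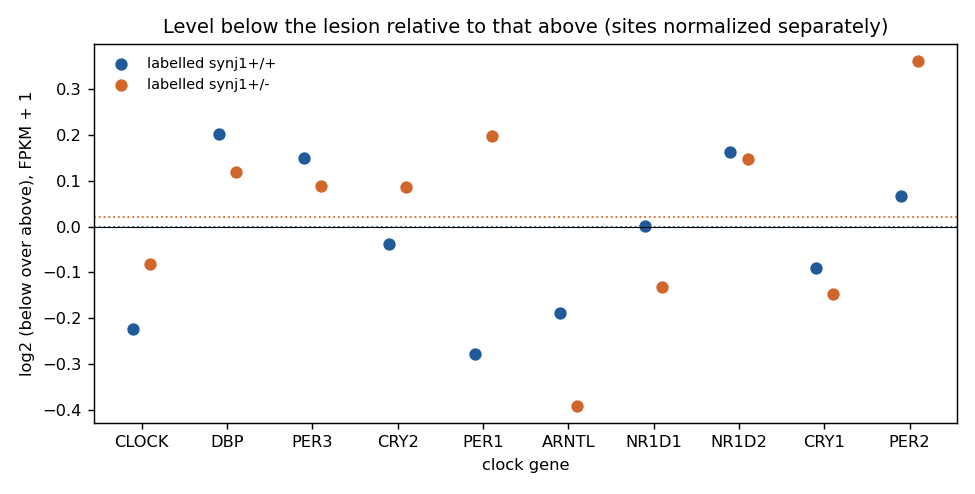
Log2 ratio of the level below the lesion to that above it (FPKM + 1) for each clock gene, in labelled homozygotes (blue) and labelled heterozygotes (orange). Dotted lines give the median of all 12025 genes in each genotype. The points of PER1 fall on opposite sides of 0, at -0.28 and 0.20, and ARNTL in labelled heterozygotes is the lowest point at -0.39.

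Other genes of the clock were described from lists. The lists here and in the paragraphs below were written with earlier results of these data known, so their counts only describe the genes listed. Of 11 further loop genes, which include the ARNTL relative NPAS2, the ROR activators, the BHLHE repressors and the D-box factors NFIL3, TEF and HLF, 0 of 11 listed above the lesion and 1 of 9 listed below passed the limit, against 13.4% and 22.2% of all genes. TIMELESS was the exception, with FPKM of 23.6 in labelled homozygotes and 19.0 in labelled heterozygotes above (log2 fold change -0.30, short of the limit) and 23.9 and 18.9 below (-0.33). The medians of this list were 0.08 above and -0.09 below. A further list held 13 genes, mostly kinases, ubiquitin ligases and other modifiers of clock proteins, and also NAMPT, which does not itself modify them. Of these, 0 of 13 passed above and 2 of 10 below, the latter close to the 22.2% of all genes at that site. The genes past the limit were FBXL21, a ubiquitin ligase of cryptochromes, at 15.2 and 20.3 (0.40), and USP2, a deubiquitinase that is itself rhythmic, at 209 and 147 (-0.50). Casein kinases CSNK1D and CSNK1E, which phosphorylate PER proteins, had log2 fold changes of 0.02 to 0.07 at both sites. The casein kinase CSNK1A1 was on the lower side, at -0.08 above and -0.06 below.

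Among 6 genes known to be rhythmic in many organs, which share USP2, CIART and TSC22D3 with the other lists, 1 of 6 was past the limit above the lesion and 4 of 6 below, against 13.4% and 22.2% of all genes. The count above is near that share. LONRF3 was lower at both sites, with FPKM of 5.66 in labelled homozygotes and 2.56 in labelled heterozygotes above and 3.76 and 2.62 below (log2 fold changes -0.90 and -0.40). TSPAN4, a tetraspanin, was lower below the lesion at 100.3 and 68.3 (-0.55), as was USP2. WEE1, a kinase of the cell cycle, was higher below the lesion at 12.1 and 15.6 (0.34). The log2 fold changes of DBP, NR1D1 and PER3, which are rhythmic in many organs as well, lay between -0.05 and 0.10 at both sites.

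PER1 responds to glucocorticoids, so 17 glucocorticoid-responsive genes were set beside it. This list was written with earlier results of these data known, so its counts only describe these genes and are no independent support. Above the lesion 12 of 17 were lower past the limit (8.54% of all genes) and 0 higher, with a median log2 fold change of -0.43 against -0.0039 for all genes. FKBP5, a chaperone that restrains the glucocorticoid receptor, had FPKM of 13.7 in labelled homozygotes and 7.47 in labelled heterozygotes (-0.80). SGK1, a kinase induced by the hormone, had levels of 519 and 334 (-0.63). The others lower past the limit were ZBTB16, DDIT4, ERRFI1, CDKN1A, MT1, MT2, HIF3A, NFKBIA, PDK4 and PLIN4, from -0.33 to -1.37. Below the lesion 9 of 17 were lower past the limit (12.7% of all genes), with a median of -0.52, and FKBP5 was at -0.61 there. SGK1 was at 0.25 below the lesion, and PER1 at 0.13. ANGPTL4 was lower past the limit only below, at -0.69. The receptor gene itself, NR3C1, was at -0.02 above and 0.01 below. The part of glucocorticoid signalling in the level of PER1 was not tested.

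Immediate-early genes, which share induction by neuronal activity with PER1, and temperature-responsive genes were described in the same way. Of 11 immediate-early genes listed above the lesion, 2 were lower past the limit, JUN at -0.32 and ATF3 at -0.33, against 8.54% of all genes. Below it 6 of 10 were lower, against 12.7% of all genes, EGR2 by most at -1.25, then BTG2, JUNB, FOSB, JUN and IER2 from -0.41 to -0.30. PER1 was not among the lower genes at that site. Of 7 temperature-responsive genes above the lesion, HSPA1A, HSPA1B and DNAJB1, all heat shock chaperones, were lower at -1.01, -1.52 and -0.36. CIRBP, a cold-inducible RNA-binding protein, was higher at 0.51. These are 4 of 7 genes, against 13.4% of all genes. Below the lesion 0 of 6 passed the limit.

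**Figure D4:**
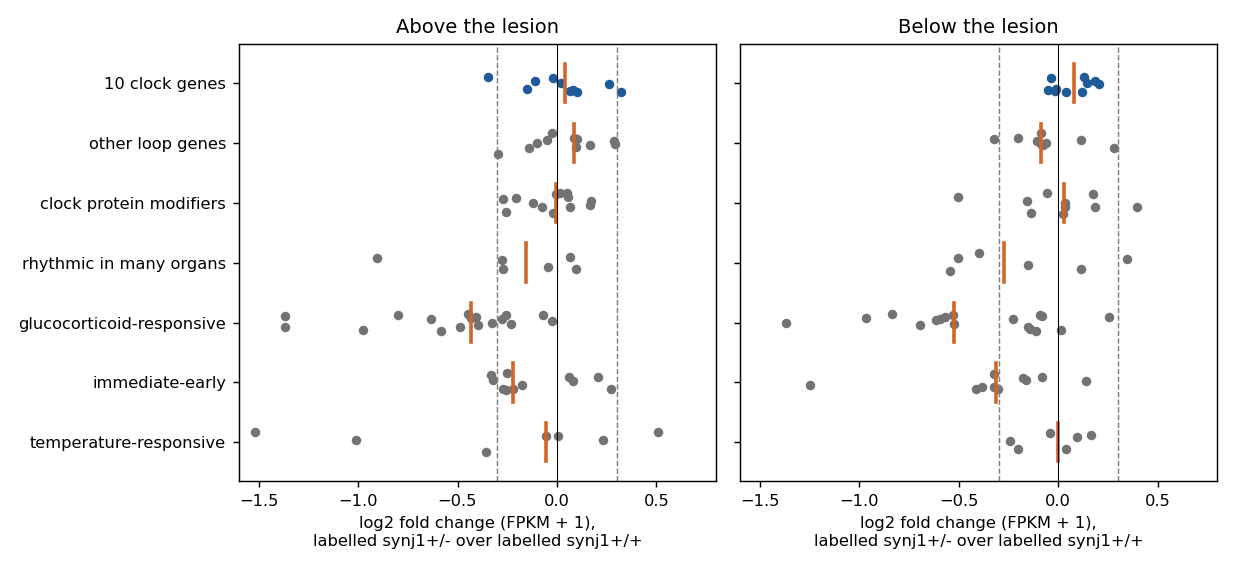
Log2 fold change (FPKM + 1, labelled heterozygotes over labelled homozygotes) of every listed gene of the 10 clock genes (blue) and 6 other lists (grey) above and below the lesion. Orange bars are the median of each list, dashed lines mark the limit of 0.3, and vertical positions within a list carry no meaning. The clock genes centre near 0 (medians 0.04 and 0.08), and the glucocorticoid-responsive genes lie to the left (medians -0.43 and -0.52).

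Marker genes of several cell types differed between the genotype labels, and within some lists the directions were mixed. The segments held RNA of cord tissue, with SNAP25 between 5238 and 6928 and GFAP between 8484 and 12974 FPKM. Microglia and macrophage markers were lower past the limit in 6 of 10 above and 6 of 7 below, against 8.54% and 12.7% of all genes. Their summed FPKM was 1749 in labelled homozygotes and 1249 in labelled heterozygotes above and 1767 and 1162 below. Fewer microglia and neuron markers were listed below than above. The sums therefore compare the genotypes within a site and not the sites with each other. Astrocyte markers summed to 20029 and 16880 above and to 18361 and 14752 below. Of these, 0 of 8 and 2 of 8 were lower past the limit, against the same 8.54% and 12.7%. GFAP alone made up 12974 and 10583 of the astrocyte sums above and 11116 and 8484 of those below. Only S100B above (0.06) and SLC1A3 below (0.10) were on the higher side. Neuron markers summed to 9642 and 10930 above and to 8074 and 10199 below. Higher past the limit were 0 of 8 and 2 of 6, against 4.87% and 9.48% of all genes. SNAP25 alone made up 5238 and 6247 of the sums above and 5271 and 6928 of those below. Above the lesion 5 of 8 were on the higher side, and TUBB3, NEFL and NEFM on the lower (-0.11, -0.05 and -0.04). Below it all 6 were on the higher side. The medians of the list were 0.07 above and 0.19 below. Fibroblast markers summed to 89.6 and 73.6 above and to 417 and 98.5 below. Lower past the limit were 5 of 6 and 6 of 6, against 8.54% and 12.7% of all genes. PDGFRA alone made up 62.6 and 57.3 of the sums above and 68.3 and 55.0 of those below. The other fibroblast markers were low above the lesion, from 0.73 to 9.60 FPKM, so the sums above are mostly PDGFRA. Erythroid markers summed to 248 and 1133 above and to 629 and 825 below. Higher past the limit were 5 of 5 and 3 of 5, against 4.87% and 9.48% of all genes. The sums of the 4 oligodendrocyte markers listed and of the 6 endothelial markers differed by at most 0.13 on the log2 scale. Past the limit were 0 of 4 oligodendrocyte markers at either site and 1 of 6 endothelial markers at each, KDR at 0.54 above and CDH5 at -0.61 below. In either direction 13.4% of all genes passed above and 22.2% below, so the endothelial counts are near that share. No listed marker was at 0 in any group. In bulk tissue, fewer cells of a type and less RNA per cell cannot be told apart, and the part of cell makeup in the clock gene differences was not tested.

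Overlapping transcripts limit the values of some members. The library kit does not mark strand, so reads of a gene and of an antisense neighbour cannot be told apart. In the GENCODE annotation of GRCm38, DBP (chromosome 7, 45705088 to 45710203) shares 539 of its 2993 exonic bases, or 18%, with Sphk2 on the opposite strand. NR1D1 (chromosome 11, 98767932 to 98775333) shares 263 of 3077 exonic bases, 8.55%, with Thra, and CRY2 (chromosome 2, 92403646 to 92434043) shares 4.67% with a noncoding transcript. ARNTL shares 33 exonic bases with an antisense transcript. PER1, PER2, PER3, CLOCK, CRY1 and NR1D2 share no exonic base with another annotated gene.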

How the data were processed

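RNA of spinal cord segments was sequenced by the authors as 100-nucleotide paired-end reads from unstranded libraries. By the methods, larger libraries were thinned at random to match the shallowest one at that site before alignment, and gene values were scaled to the upper quartile. The submitters' processing notes list STAR 2.5.4b, Cuffdiff 1.3.0 and GRCm38.p6. The authors deposited 1 value per gene and group with no unit stated. The lowest deposited value is 1, so values were read as FPKM + 1 on a relative scale. The table also holds the authors' fold changes, log2 fold changes, p-values and q-values, as does a shorter list, and these were not used.

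From the values, log2 fold changes (pseudocount 1) were computed per site for all entries, and counted at a limit of 0.3. No test was run, because the authors' p-values were set aside and each group is otherwise 1 value. Alternatives changed the pseudocount, the scaling, the limit and a filter on low values.

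The members, gene lists, limit and motifs were chosen with earlier results of these data known. The genes named are the members, SYNJ1, list genes past the limit at either site, and a few others on which a sentence turns. Symbols were matched to RefSeq promoters and to GENCODE M21. The calculation was run on a simulated table with known folds and no noise, which checks the arithmetic only. Python 3.11.15, numpy 2.4.6, pandas 2.3.3 and matplotlib 3.10.9 were used.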

Additional observations from a re-analysis of the deposited data

How the results depend on the processing

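With a pseudocount of 10, ARNTL above the lesion fell short of the limit (log2 fold change 0.29), leaving 1 member past it in place of 2. A limit of 0.5 left 0 members above the lesion, and a limit of 0.2 gave 1 below. Of the other loop genes, a limit of 0.2 gave 3 above and 3 below, and a limit of 0.5 gave 0 below. Without a pseudocount, 2 members in place of 1 differed by 0.3 or more between the sites, the second being PER2. The other alternatives run on the members, the other loop genes and the site differences left counts within 1.5 times of those reported and the members' medians short of the limit. The other lists were not recomputed. None of the 80 member values under another pseudocount or scaling changed sign, and the largest move was 0.091 on the log2 scale. No scaling moved the median of all genes by 0.1. Leaving out a replicate was not run, because the table holds 1 value per group. No paired analysis was possible because the columns carry no replicates. The values have no error and no read count beside them, so small differences between groups cannot be told from the spread between mice.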

Other observations

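Ratios between clock genes within a group do not depend on scaling between groups. ARNTL over PER1, activator over repressor, was 0.804 in labelled homozygotes and 1.29 in labelled heterozygotes above the lesion, and 0.856 and 0.851 below it. ARNTL over DBP was 0.527 and 0.630 above and 0.401 and 0.441 below. CLOCK over ARNTL, the partners of the activating pair, was 1.98 and 1.42 above and 1.93 and 1.77 below. Between paralogs, CRY2 exceeded CRY1 by 5.40 to 6.74 times and PER3 exceeded PER2 by 10.8 to 13.4 times in the 4 groups. The ratio of NR1D1 to NR1D2 stayed between 1.16 and 1.41. These ratios were chosen after the values were seen and have no error.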
